A study of Mus musculus with 10 samples.

Results

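The SREBP sensing machinery was described by 8 genes: the transcription factor genes Srebf1 and Srebf2, the escort gene Scap, the anchor genes Insig1 and Insig2, the protease genes Mbtps1 and Mbtps2, and the sterol carrier gene Stard4. They were picked by symbol, with earlier results of these data known. No threshold on a measured value entered the rule. All 8 were among the 54343 genes of the deposited table, and all 8 were among the 11110 genes that reached an FPKM of 1 in at least 5 libraries and were tested. No lipoprotein receptor is among them. Genes for lipoprotein uptake, receptors included, are described further on as a separate list.

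A mouse tumour line and its derivative were compared in culture, each with 5 polyA-selected RNA sequencing libraries. MC38 is the vendor's parental line, labelled wild type. MC38.T4, labelled as low in mesothelin expression, descends from MC38 cells carrying a human mesothelin expression vector (huMSLN.pcDNA3.1); sorted clones of these were grown as tumours in C57/BL6 mice for about 25 days, returned to culture for 10 passages, and cloned again from a single cell. MC38.T4 is therefore 1 clone, so transfection, tumour passage and cloning cannot be told apart as sources of a difference. Both lines were kept in RPMI1640 with 10% fetal bovine serum, a medium that supplies lipoprotein cholesterol. The series title names Ssbp4, immune evasion and cholesterol biosynthesis. Apart from the sterol carrier gene Stard4, the members belong to the machinery that regulates that biosynthetic pathway.

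Cells sense cholesterol in the endoplasmic reticulum. SREBP-1 and SREBP-2 are made as membrane-bound precursors held by SCAP, which escorts them to the Golgi when sterols are scarce and is retained by INSIG proteins when sterols are plentiful. In the Golgi the site-1 protease (Mbtps1) and then the site-2 protease (Mbtps2) release the active factor, which enters the nucleus and switches on genes of lipid synthesis and uptake. Insig1, Srebf2 and Stard4 are themselves known SREBP targets, so the circuit holds feedback in both directions. All of these steps act on proteins, and the present data measure only mRNA.

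Promoters of 4 genes are shown because they belong to the largest rise (Insig1), to both SREBP genes, and to the only member that fell (Mbtps2). Each run gives the 250 bases before an annotated start, from RefSeq on build GRCm38.p6, read 5′ to 3′ along the gene. RefSeq entries were found for 7 of the 8 members. Srebf1 has 3 annotated starts, and the one shown is the most downstream, start 3. Capitals mark every match, on either strand, to the GC box GGGCGG, the CCAAT box bound by NF-Y, the E-box CACGTG, the sterol element TCACNCCAC, or its shortened form TCACNCCA. None of these motifs overlapped another in the runs shown.
Insig1, GRCm38.p6 chr5:28071162-28071411, plus strand: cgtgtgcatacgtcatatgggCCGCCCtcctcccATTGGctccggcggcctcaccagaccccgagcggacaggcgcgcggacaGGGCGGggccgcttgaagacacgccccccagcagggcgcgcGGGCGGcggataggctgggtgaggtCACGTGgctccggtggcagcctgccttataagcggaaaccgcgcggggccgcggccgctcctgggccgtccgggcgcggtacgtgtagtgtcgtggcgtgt
Srebf2, GRCm38.p6 chr15:82147019-82147268, plus strand: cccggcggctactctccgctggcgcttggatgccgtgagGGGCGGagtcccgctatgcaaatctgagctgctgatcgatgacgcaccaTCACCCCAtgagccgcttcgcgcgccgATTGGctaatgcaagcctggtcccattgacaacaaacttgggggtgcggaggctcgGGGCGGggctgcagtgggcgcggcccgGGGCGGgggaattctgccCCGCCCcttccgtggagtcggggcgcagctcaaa
Srebf1, GRCm38.p6 chr11:60210472-60210721, minus strand: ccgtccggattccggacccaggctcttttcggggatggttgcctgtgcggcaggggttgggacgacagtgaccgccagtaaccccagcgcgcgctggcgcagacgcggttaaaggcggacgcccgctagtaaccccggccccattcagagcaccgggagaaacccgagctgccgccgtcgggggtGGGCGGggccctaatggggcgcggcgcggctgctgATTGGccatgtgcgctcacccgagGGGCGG
Mbtps2, GRCm38.p6 chrX:157598716-157598965, minus strand: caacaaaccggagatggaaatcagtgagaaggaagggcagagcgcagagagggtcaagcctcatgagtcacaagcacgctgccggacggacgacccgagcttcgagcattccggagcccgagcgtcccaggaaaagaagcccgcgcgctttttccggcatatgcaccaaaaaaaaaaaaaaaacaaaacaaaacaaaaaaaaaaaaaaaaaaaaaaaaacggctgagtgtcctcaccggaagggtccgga

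The Insig1 window held 3 GC boxes, 1 CCAAT box and 1 E-box, and the Srebf2 window held 4 GC boxes and 1 CCAAT box. The sterol element TCACNCCAC was in none of the members' windows and in 1.05% of all 32851 promoter windows of 250 bases. Its shortened form, a search chosen after the sequences had been read, occurred once among the members, as TCACCCCA between 162 and 155 bases before the Srebf2 start, and in 3.67% of all windows. E-boxes stood before Insig1, from 101 to 96 bases before the start, and before the second Scap start, and in 6.02% of all windows. CCAAT boxes stood before at least 1 start of Insig1, Insig2, Srebf1 and Srebf2, and in 33.8% of all windows. GC boxes stood before at least 1 start of Insig1, Insig2, Mbtps1, Scap, Srebf1 and Srebf2, and in 32.7% of all windows. The percentages are per window, whereas Insig2 and Srebf1 have 3 annotated starts each and Scap has 2. Mbtps2 held no match to any of the motifs, and neither did the first Scap start. The windows also differed in GC content: 72.8% for Insig1, 67.6% for Srebf2 and 49.6% for Mbtps2. The median over all promoters was 52.4%, and the part of GC content in the motif counts was not tested. These matches describe letters in a window and show neither binding nor its absence.

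**Figure D1:**
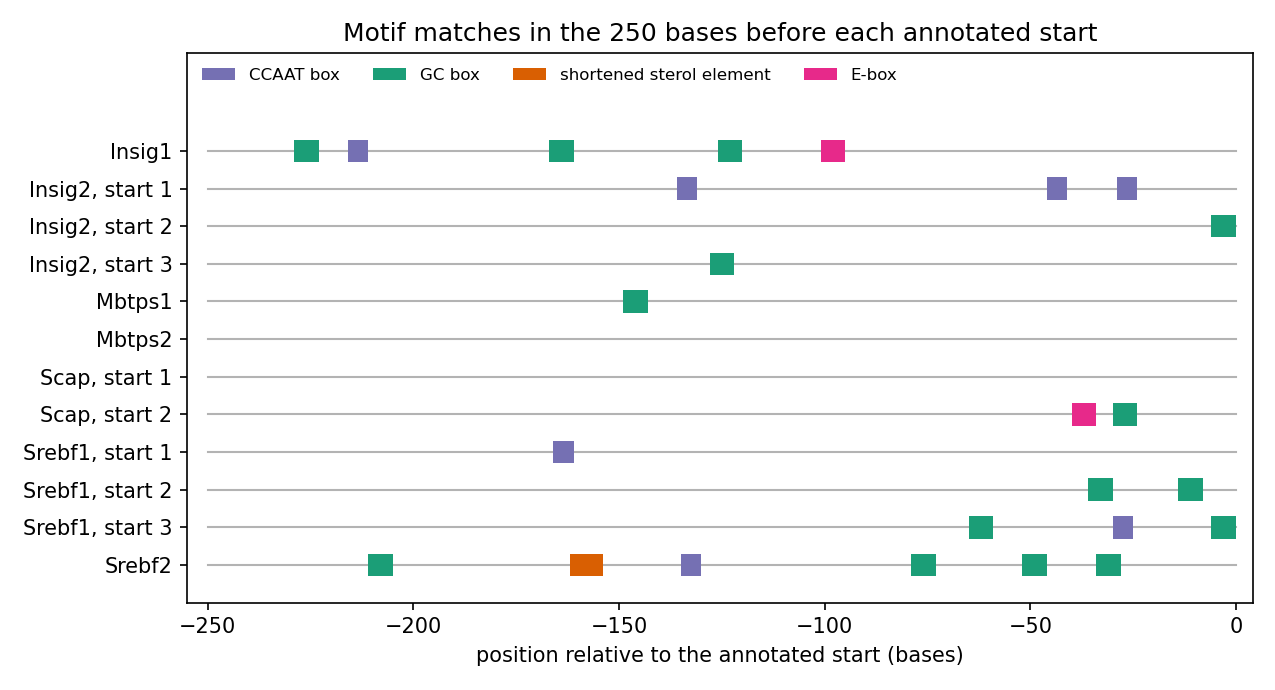
Motif matches in the 250 bases before each annotated start of the 7 members with a RefSeq promoter (horizontal axis, bases relative to the start; 1 row per start). Insig1 and Srebf2 carry the most matches, and Mbtps2 and the first Scap start carry none.

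Of the 8 members 7 rose and 1, Mbtps2, fell in MC38.T4. In bulk RNA, fewer cells that express a gene and less of its RNA per cell cannot be told apart. Most of the transcriptome differed between the lines, and 86.0% of all tested genes passed the same test (43.1% higher and 42.9% lower), so that passing it sets no member apart. Of the members 4 (Insig1, Srebf1, Mbtps1 and Stard4) rose by at least 1 on the scale of log2(FPKM + 1) and none fell by as much. Among all tested genes 10.0% rose and 7.14% fell by that size, 17.2% in either direction. The median log2 change was 1.01 over the members and 0.00077 over all tested genes. The lines did not overlap in FPKM for any of the 8 members, as for 77.4% of all tested genes. Each member reached p = 0.00794 in the exact two-sided permutation test over the 10 libraries, the smallest value that 5 against 5 can give. Adjusted p-values below are from limma with Benjamini-Hochberg adjustment over all tested genes, and SDs are over n = 5 libraries. Whether replicate libraries stem from separate cultures is not stated, so the tests measure only the spread between libraries, which may be technical.

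**Figure D2:**
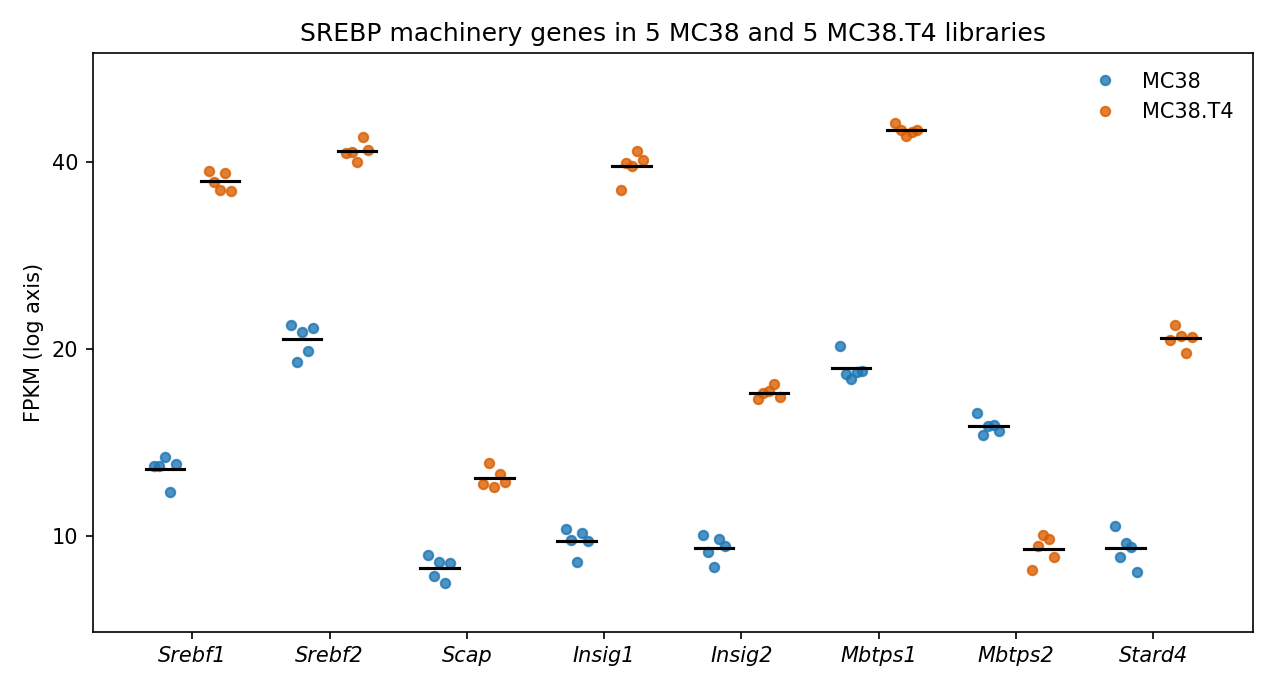
FPKM (log axis) of the 8 members in the 5 MC38 and 5 MC38.T4 libraries, 1 point per library with the mean as a bar. The lines separate for every member, and only Mbtps2 is lower in MC38.T4.

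Both SREBP genes rose, Srebf1 more than Srebf2. Srebf1, which encodes SREBP-1 and is best known for driving fatty acid synthesis, stood at 13.0, 13.0, 13.4, 11.8 and 13.0 FPKM in MC38 replicates 1 to 5. In MC38.T4 replicates 1 to 5 it stood at 38.7, 37.2, 36.1, 38.5 and 36.0 FPKM. The lowest MC38.T4 library was thus 2.68-fold above the highest MC38 library. The means were 12.8 ± 0.62 and 37.3 ± 1.3 FPKM, a 2.91-fold rise (log2 change 1.47, SE 0.04, adjusted p = 3.32e-14). Values are per gene, so the SREBP-1a and SREBP-1c transcripts, which start at different promoters, were not separated.

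Srebf2 encodes SREBP-2, the main activator of cholesterol synthesis genes. Its FPKM was 21.8, 19.0, 21.3, 19.9 and 21.6 in the MC38 libraries, and 41.4, 41.6, 40.0, 43.9 and 41.8 in the MC38.T4 libraries. Every MC38.T4 library lay above every MC38 library, with MC38.T4 replicate 4 the highest. Mean FPKM went from 20.7 ± 1.2 to 41.7 ± 1.4, which is 2.01-fold (log2 change 0.98, SE 0.04, adjusted p = 6.72e-12). Srebf2 was therefore just under the limit of 1 on the log2(FPKM + 1) scale and just over 2-fold in FPKM. Within a library the ratio of Srebf2 to Srebf1 was 1.69, 1.47, 1.59, 1.69 and 1.66 in MC38. In MC38.T4 it was 1.07, 1.12, 1.11, 1.14 and 1.16. The SREBP-2 gene was thus the more abundant of the pair in all 10 libraries, and by less in MC38.T4.

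Scap, the gene of the sterol-sensing escort, had the smallest change of the 8. Its FPKM in MC38 was 9.30, 8.60, 9.08, 8.38 and 9.03, against 12.1, 13.1, 12.0, 12.6 and 12.2 in MC38.T4. The lines stayed apart, with 8.88 ± 0.38 FPKM in MC38 and 12.4 ± 0.45 in MC38.T4. This was a 1.40-fold rise (log2 change 0.44, SE 0.04, adjusted p = 4.43e-08), smaller in size than the median change of all tested genes, which was 0.47.

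The anchor genes rose unequally. Insig1, the INSIG gene that SREBPs are known to induce, was at 10.2, 9.85, 9.08, 10.1 and 9.82 FPKM in MC38. Its MC38.T4 values were 36.1, 39.9, 39.4, 41.7 and 40.3 FPKM. No library of one line came near the other, since the lowest MC38.T4 value was 3.52-fold above the highest MC38 value. From 9.82 ± 0.45 to 39.5 ± 2.1 FPKM, Insig1 rose 4.02-fold (log2 change 1.90, SE 0.04, adjusted p = 7.18e-15), and 97.9% of all tested genes had a lower log2 change.

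Insig2, the second anchor gene, whose product also retains SCAP and which is less tied to SREBP activity, rose less. It was at 10.0, 9.43, 8.92, 9.89 and 9.62 FPKM in MC38 and at 16.6, 17.0, 17.1, 17.6 and 16.8 in MC38.T4. The means of 9.57 ± 0.43 and 17.0 ± 0.36 FPKM differed 1.78-fold (log2 change 0.77, SE 0.04, adjusted p = 2.76e-11). In MC38 the anchors were close to equal: the ratio of Insig1 to Insig2 was 1.02, 1.04, 1.02, 1.02 and 1.02. In MC38.T4 the same ratio was 2.17, 2.34, 2.30, 2.38 and 2.41, so Insig1 was the major anchor transcript there. The ratio of Scap to the summed anchors was 0.459, 0.446, 0.504, 0.419 and 0.465 in MC38. It was 0.230, 0.231, 0.212, 0.212 and 0.214 in MC38.T4, where more anchor transcript accompanied each escort transcript.

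The protease genes went in opposite directions. Mbtps1, the gene of the site-1 protease that makes the first cut in the Golgi lumen, was at 20.2, 18.2, 17.9, 18.3 and 18.5 FPKM in MC38. Its MC38.T4 values were 46.3, 45.2, 44.1, 44.7 and 45.1 FPKM, with the lowest coefficient of variation of all members in either line. MC38 replicate 1 stood above the other MC38 libraries and still far below MC38.T4. The means were 18.6 ± 0.91 and 45.1 ± 0.82 FPKM, a 2.42-fold rise (log2 change 1.23, SE 0.04, adjusted p = 8.86e-14).

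Mbtps2, the gene of the site-2 protease that makes the second cut within the membrane, was at 15.8, 14.6, 15.0, 15.1 and 14.7 FPKM in MC38. In MC38.T4 it was at 8.80, 9.63, 10.0, 9.88 and 9.25 FPKM, below every MC38 library. Its mean fell from 15.0 ± 0.46 to 9.52 ± 0.50 FPKM, a 1.58-fold decrease (log2 change -0.61, SE 0.04, adjusted p = 1.26e-09). Of all tested genes 18.4% had a lower log2 change. The ratio of Mbtps1 to Mbtps2 was 1.28, 1.25, 1.19, 1.22 and 1.25 in MC38 and 5.27, 4.69, 4.39, 4.52 and 4.87 in MC38.T4, the largest shift of the 4 ratios examined.

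Stard4 encodes a soluble StART domain protein that moves cholesterol between membranes and is induced when sterols are low. Its FPKM was 10.4, 9.25, 9.73, 9.59 and 8.76 in MC38 and 20.7, 21.9, 21.0, 19.7 and 20.9 in MC38.T4. The lines were separated by a factor of 1.90 between their nearest libraries. Stard4 rose 2.18-fold, from 9.54 ± 0.60 to 20.8 ± 0.78 FPKM (log2 change 1.05, SE 0.04, adjusted p = 5.17e-12).

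**Figure D3:**
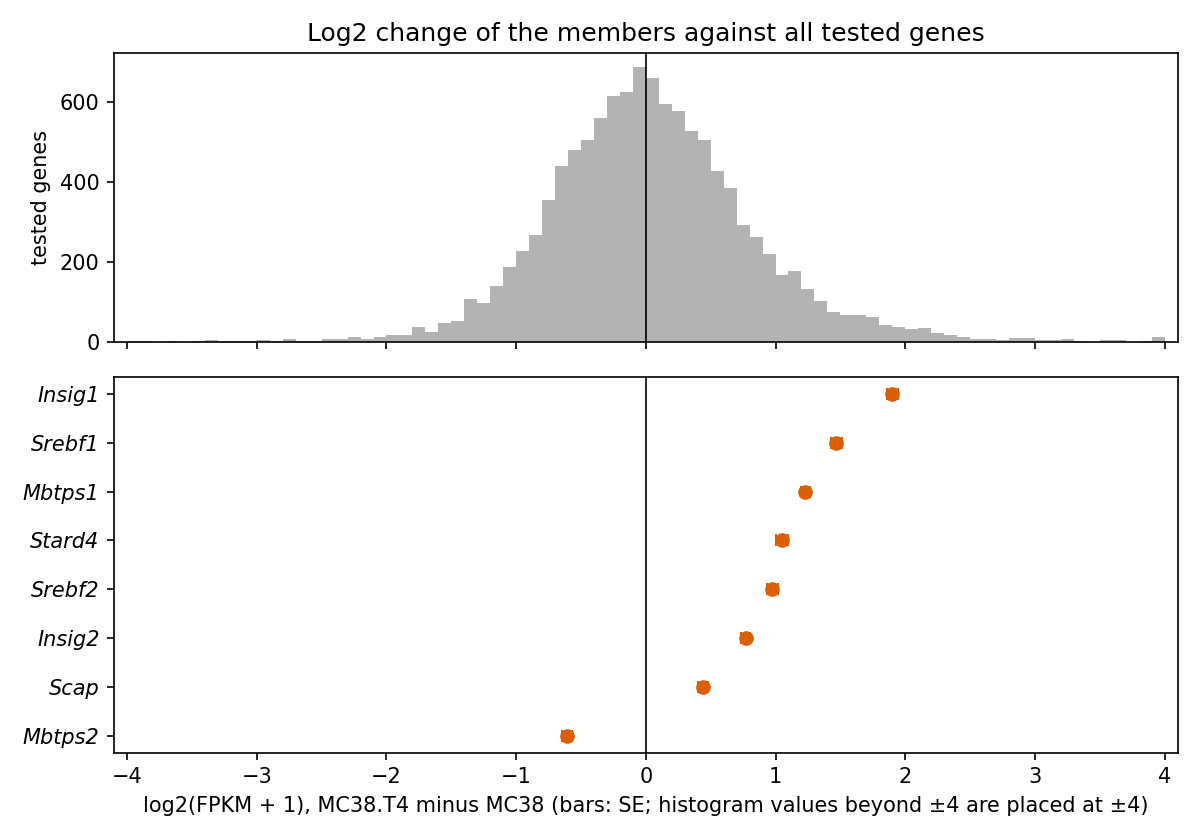
Top, number of tested genes by difference in log2(FPKM + 1), MC38.T4 minus MC38; bottom, the same difference for the 8 members with its SE. Insig1 lies furthest to the right at 1.90, Scap at 0.44, and Mbtps2 at -0.61 is the only member left of 0.

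Ratios within a library do not depend on the library total, and each of the 4 examined differed between the lines without overlap. The mean of Srebf2 to Srebf1 went from 1.62 ± 0.09 to 1.12 ± 0.03, and that of Insig1 to Insig2 from 1.03 ± 0.01 to 2.32 ± 0.09. Scap to the summed anchors went from 0.459 ± 0.031 to 0.220 ± 0.010, and Mbtps1 to Mbtps2 from 1.24 ± 0.04 to 4.75 ± 0.34 (SD, n = 5 each). On the log2 scale the differences were -0.53, 1.18, -1.06 and 1.93, in that order. Each ratio had an exact two-sided permutation p of 0.00794, also after Benjamini-Hochberg adjustment over the 4 ratios. This is the smallest value that 5 against 5 can give. Of all tested genes 77.4% did not overlap between the lines, and the share for ratios of other gene pairs was not computed. The ratios are made from the member values given above and add no independent evidence.

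**Figure D4:**
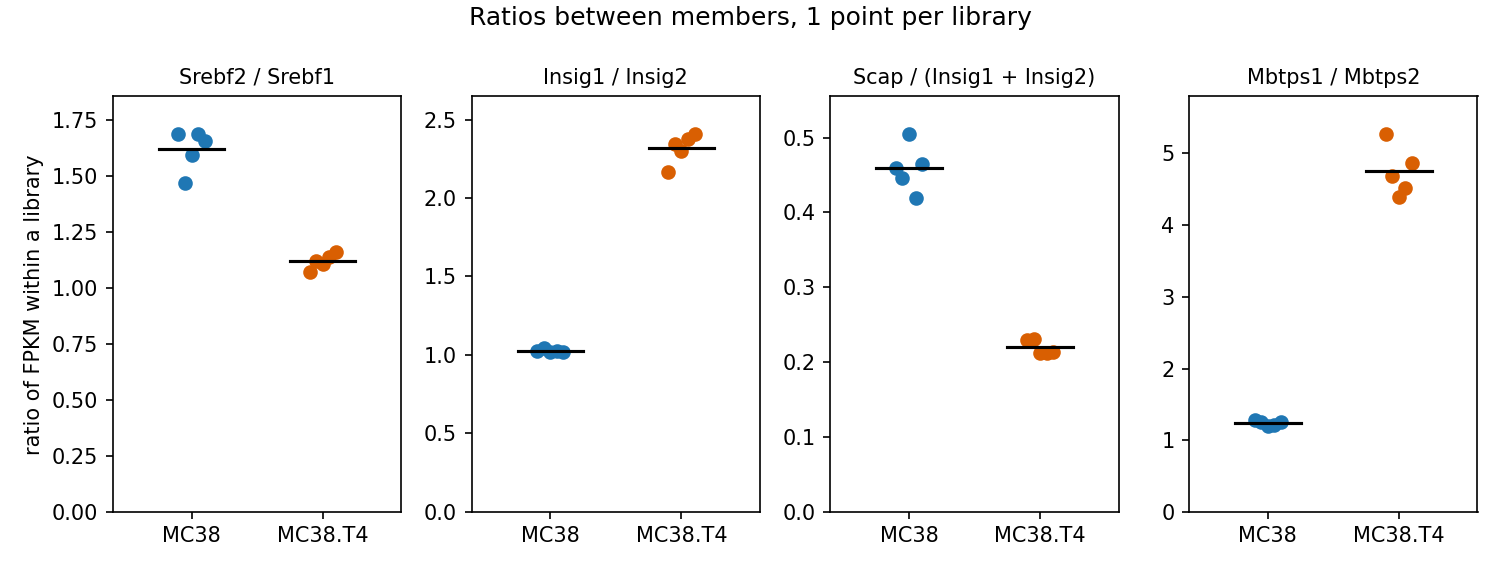
Ratio of FPKM between members within each library (vertical axes from 0), 1 point per library, with the mean of each line as a bar. Mbtps1 to Mbtps2 and Insig1 to Insig2 are higher in every MC38.T4 library, and the ratios of Srebf2 to Srebf1 and of Scap to the anchors are lower.

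The order of transcript levels per gene length differed between the lines. In MC38 it ran Srebf2, Mbtps1, Mbtps2 and Srebf1, then Insig1, Insig2, Stard4 and Scap. Among the last 4, neighbours overlapped in range, and Srebf2 and Mbtps1 overlapped as well, although Srebf2 was the higher in each of the 5 libraries. In MC38.T4 Mbtps1 came first, without overlap with Srebf2, which followed it. Srebf2 overlapped Insig1, and Insig1 overlapped Srebf1. Then came Stard4, Insig2, Scap and Mbtps2, none of which overlapped its neighbours in the order. Mbtps2 moved from the third place to the last. Within a line the members varied little, with coefficients of variation between 1.83% and 6.29%.

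Profiles most like those of the 4 members that rose by at least 1 were sought among 8264 tested genes with a mean FPKM of at least 5. Gene models named only by a Gm number or a Rik symbol were left out. Likeness was the root mean square distance of log2(FPKM + 1) over the 10 libraries, each gene centred on its mean. Nearest to Insig1 were Lgals9 (distance 0.055), which encodes galectin-9, Gbp3 (0.065) and Il1rap (0.066). Sfxn3, Rgs19 and Tns2 were nearest to Srebf1 (0.037 to 0.049), and Abr, Zfp251 and Ccny to Stard4 (0.025 to 0.037). Nearest to Mbtps1 were Atp8b2, Kcnab2 and Sec24d (0.035 to 0.041), the last encoding a cargo adaptor of COPII vesicles. The distance follows the size of the difference between the lines. No member was among the 3 nearest genes of any of these 4. The closest was Srebf2, at 0.093 from Stard4. Nearest genes of the remaining members were not sought.

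Genes that carry the SCAP and SREBP complex went both ways. Of 12 tested genes for COPII coat proteins and Golgi factors 5 rose and 6 fell, with a median log2 change of -0.07. Tested genes in general also went both ways, with 43.1% called higher and 42.9% lower. Sec24d rose from 18.0 ± 0.22 to 44.3 ± 1.4 FPKM and Sec13, a coat subunit, from 51.9 ± 2.3 to 85.8 ± 2.3 FPKM. Paqr3, whose product tethers SCAP and SREBP in the Golgi, fell from 23.8 ± 1.7 to 7.48 ± 1.2 FPKM, and the COPII GTPase gene Sar1b from 50.6 ± 2.4 to 25.6 ± 2.0 FPKM. The adjusted p was at most 4.13e-10 for these 4 genes. Sec23a, a coat gene singled out after its values were seen, was the least secure of the 5 rises, at 18.3 ± 0.76 FPKM in MC38 and 19.5 ± 0.55 in MC38.T4 (limma adjusted p = 0.0473). It missed the threshold under 13 of 20 alternatives, which left 4 rises, with an adjusted p of 0.00883 to 0.473 over all 20. Among these 13 were the fits without any 1 of MC38 replicates 2, 3, 4 and 5 or of MC38.T4 replicates 1, 2, 3 and 4.

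Among 14 tested genes for ubiquitin ligases and degradation at the endoplasmic reticulum 4 rose and 6 fell (median log2 change -0.05). The shares over all tested genes were 43.1% higher and 42.9% lower. The ligase gene Rnf5 rose from 2.82 ± 0.27 to 14.6 ± 1.4 FPKM and Aup1 from 21.2 ± 0.87 to 47.1 ± 2.5. The ubiquitin-conjugating enzyme gene Ube2g2 fell from 143.3 ± 5.5 to 42.1 ± 0.98 FPKM, and Erlin1, a membrane scaffold that binds SREBP, SCAP and INSIG1, from 125.2 ± 4.2 to 57.7 ± 2.4. Their adjusted p was at most 1.39e-12.

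Other precursors that the same proteases cut, among them stress-sensing transcription factors, were split. Of 5 tested genes 2 rose and 3 fell, and the median log2 change was -0.57 while the mean was 0.24. For all tested genes the called shares were 43.1% higher and 42.9% lower. Atf6b rose from 4.09 ± 0.35 to 21.7 ± 0.71 FPKM and Creb3l2 from 4.14 ± 0.11 to 13.4 ± 0.36. Atf6, a sensor of unfolded proteins, fell from 47.1 ± 3.8 to 20.2 ± 1.7 FPKM, and Gnptab, a site-1 protease substrate needed for lysosomal enzyme targeting, from 32.8 ± 2.2 to 19.7 ± 0.64. These changes had an adjusted p of at most 5.72e-10. Creb3l1, Creb3l3 and Creb3l4 lay below the filter, none above 0.878 FPKM.

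In the list for lipoprotein uptake and endosomal release 7 of 11 tested genes rose and 2 fell, with a median log2 change of 0.32. Over all tested genes 43.1% were called higher and 42.9% lower. Mylip, whose product marks lipoprotein receptors for degradation, rose from 3.07 ± 0.16 to 11.1 ± 0.38 FPKM, and Dab2, an endocytic adaptor gene, from 8.66 ± 0.34 to 24.2 ± 1.1. The falls were those of Npc1 (24.7 ± 1.0 to 12.6 ± 0.41 FPKM) and Npc2 (59.6 ± 2.6 to 45.5 ± 1.7 FPKM), whose products release cholesterol from late endosomes. Their adjusted p was at most 1.34e-07. The list holds 4 tested receptor genes, given here after their values were seen. Lrp8 rose from 12.8 ± 1.7 to 23.5 ± 1.7 FPKM (limma adjusted p = 5.2e-08) and Vldlr from 21.2 ± 1.1 to 26.2 ± 2.5 FPKM (limma adjusted p = 0.000245). Scarb1, the HDL receptor gene, was at 53.4 ± 2.0 FPKM in MC38 and 54.7 ± 3.3 in MC38.T4 (limma adjusted p = 0.448). Lrp1 passed narrowly, with 7.47 ± 1.0 FPKM in MC38 and 9.69 ± 2.0 in MC38.T4 (limma adjusted p = 0.0393). Its call was lost under 12 of 20 alternatives, which left 6 rises, with an adjusted p of 0.0114 to 0.0895 over all 20. Among these 12 were the fits without any 1 of MC38 replicates 2, 3, 4 and 5 or of MC38.T4 replicates 1, 4 and 5.

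Other sterol carrier genes went both ways. Of 16 tested genes 9 rose and 6 fell (median log2 change 0.18, mean -0.005). Called shares over all tested genes were 43.1% higher and 42.9% lower. No carrier gene of this list rose by 1 or more on the scale of log2(FPKM + 1). Osbpl6 and Osbpl1a, of the oxysterol-binding protein family, rose from 2.35 ± 0.21 to 4.84 ± 0.40 and from 5.55 ± 0.31 to 9.63 ± 0.39 FPKM. For Osbpl6 this was 2.06-fold in FPKM and a change of 0.80 in log2(FPKM + 1). Stard5, of the same StART subfamily as Stard4, fell from 19.3 ± 0.46 to 7.93 ± 0.42 FPKM, and Osbpl8 from 15.4 ± 2.4 to 8.42 ± 0.10. All 4 had an adjusted p of 2.02e-07 or less.

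Most enzyme genes downstream of the SREBPs rose. Of 18 tested cholesterol enzyme genes 18 rose (13 of them by at least 1, median log2 change 1.20), and of 12 tested fatty acid enzyme genes 11 rose and none fell (6 by at least 1, median 1.05). Among all tested genes 43.1% were called higher, and 10.0% were called higher by at least 1. By the naming rule the largest rises were those of Fdps (log2 change 3.03) and Mvk (2.40), both of the mevalonate pathway, and of the desaturase genes Scd2 (3.29) and Fads2 (2.91). The lowest log2 changes were 0.26 for Sqle among the cholesterol enzymes and -0.11 for Gpam, not called, among the fatty acid enzymes. No test compared these lists with the members or with each other, and the lists were chosen with earlier results of these data known.

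**Figure D5:**
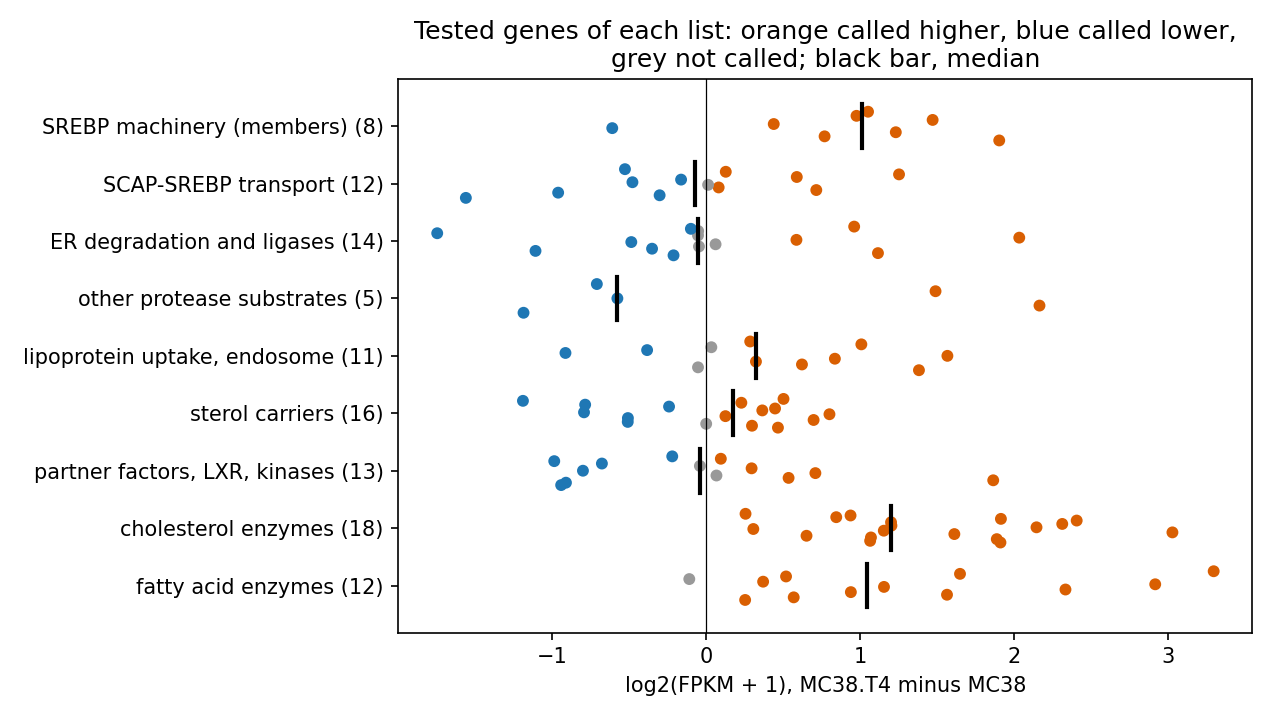
Difference in log2(FPKM + 1), MC38.T4 minus MC38, of each tested gene in 9 lists (number tested in brackets; orange, called higher; blue, called lower; grey, not called; black bar, median). The members and the enzyme lists lie mostly to the right, and the lists for transport, degradation and partner factors lie on both sides of 0.

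FPKM summed to between 442183 and 484460 per library, relative depth read from the steps of low values lay between 0.874 and 1.14, and no source used here states the read totals. MC38 replicate 1 had the lowest FPKM sum and MC38.T4 replicate 4 the highest mitochondrial share (6.85%, against 3.76% to 6.05% in the other libraries). Without this pair, an analysis added once the values were known, 7 members rose and 1 fell, as with all 10. The tissue label says melanoma, while the library names and the treatment text say colon carcinoma. Of 7 melanocyte markers only Mitf passed the filter and Tyr was listed at 0 in every library. None of 9 epithelial markers passed, with Cdx2 listed at 0. Summed epithelial markers were at 0.0567 to 0.134 FPKM in MC38 and 1.13 to 1.47 in MC38.T4, while Krt19 went the other way. Summed fibroblast markers were at 28.0 to 31.5 FPKM in MC38 and 100.4 to 109.9 in MC38.T4, with Thy1 listed at 0. Fap, of the same list, went the other way, from 0.0184 to 0.0613 FPKM in MC38 to at most 0.0136 in MC38.T4. The part of these markers in the members' changes was not tested. Summed lymphocyte markers reached at most 0.115 FPKM, endothelial markers 0.634 and myeloid markers 4.41, with Cd3e, Cd8a and Adgre1 listed at 0. The endothelial sum was 0.0442 to 0.122 FPKM in MC38 and 0.469 to 0.634 in MC38.T4. Of the myeloid markers only Cd68 passed the filter, at 2.62 to 3.44 FPKM in MC38 and 1.70 to 3.02 in MC38.T4.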

How the data were processed

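Libraries of cultured cells, 5 per line, were measured by polyA-selected, strand-specific RNA sequencing (TruSeq stranded kit, per the labels' protocols). The file deposited by the authors holds FPKM, a fragment count divided by gene length and by the total of the library, with 1 column per library matched by library name. The submitters' processing notes name GRCm39 and DESeq2; the aligner, counter, annotation, use of strand and handling of shared reads are not stated in any source used here. FPKM keeps no read counts, so no counting interval was attached, and a few abundant genes can shift all others.

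Genes that reached 1 FPKM in 5 or more of the 10 libraries were tested as log2(FPKM + 1) with limma 3.58.1 in R 4.3.3 (trend and robust moderation, group term only, two-sided, Benjamini-Hochberg adjustment, threshold 0.05). This scale understates changes of low genes. Fold values are ratios of mean FPKM. Ratios between members and single members also had exact permutation tests (SciPy 1.17.1, Python 3.11.15).

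The members and lists were chosen with earlier results of these data known. Named genes are the members, the 2 largest rises and 2 largest falls called in each list, and the 3 nearest profiles of members called with a change of at least 1. Some genes of this pathway are not reported here. Promoters are RefSeq's, on GRCm38.p6, matched by symbol; that build differs from the authors', whose table holds no coordinates. Protein sequences were not analysed here. On simulated data for these 11110 genes, 200 of them set to change, the limma code recovered 58% at a change of 0.25, 96% at 0.5 and 100% at 1. Of its calls 5.85% were unchanged genes. The simulation used normal noise with the SDs of MC38 for both lines. In the real data 86.0% of genes were called, so these figures check the code and do not describe recovery in this comparison.

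The settings varied in turn were the pseudocount (0.1), the filter (none, or 5 FPKM), the scaling (TPM, quantiles or equal medians), plain eBayes, the replicate number as a block, an exact rank-sum test, leaving out each library, and leaving out 2 libraries together.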

Additional observations from a re-analysis of the deposited data

Results flagged for a closer look

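Among 24 groups of 5 libraries (8 members and 4 ratios in each line), 3 held a library set apart from the other libraries of its line by Dixon's test; chance alone gives about 1 in 20 groups. Srebf1 in MC38 replicate 4 was at 11.8 FPKM, below the other MC38 libraries (13.0 to 13.4 FPKM). Mbtps1 in MC38 replicate 1, the library with the lowest FPKM sum, was at 20.2 FPKM, above the others (17.9 to 18.5 FPKM). The ratio of Insig1 to Insig2 in MC38 replicate 2 was 1.04, above the others (1.02 in each), within a group whose whole range was narrow.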

How the results depend on the processing

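All 160 values of single members under 20 alternatives to the limma result kept their direction and stayed past the threshold. The highest adjusted p was 0.0103, from the exact rank-sum test. Log2 changes ranged from 1.87 to 2.00 for Insig1, from 0.95 to 1.01 for Srebf2, from 0.40 to 0.48 for Scap and from -0.68 to -0.58 for Mbtps2. With a pseudocount of 0.1 the number of members that changed by at least 1 was 5, Srebf2 being added, and it was 4 under the other alternatives. At that pseudocount 2508 of all 11110 genes (22.6%) were called with such a change, against 1906 (17.2%). The count of all called genes ranged from 7683 of 8806 tested with a minimum FPKM of 5 to 12725 of 26597 tested with no filter. In the main fit it was 9555 of 11110, so the called share was smaller without a filter. The median log2 change of all genes was -0.045 after rescaling to TPM, the furthest from 0 of any setting. Counts of called list genes moved by at most 2. The trafficking rises were 4 instead of 5 under 13 of 20 alternatives, the uptake rises 6 instead of 7 under 12, and the rises among partner factors 4 instead of 5 under 5, where Rptor was lost (limma adjusted p = 0.0242, and up to 0.332). Degradation genes called lower ranged from 6 to 8, carriers called higher from 8 to 10 and cholesterol enzymes called higher from 17 to 19. With quantile normalization and with equal medians 1 fatty acid enzyme gene was called lower, against 0 otherwise. The other list counts moved by at most 1.

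Same-numbered libraries did not deviate together: the correlations of their deviations ran from -0.129 to 0.142, so the numbers do not pair the libraries. With the replicate number as a block, limma called 7 members higher and 1 lower. For the ratios the replicate block was an exact sign-flip test over 5 pairs, which cannot give less than p = 0.0625, and each ratio had that p. Their log2 differences were unchanged at -0.53 (Srebf2 to Srebf1), 1.18 (Insig1 to Insig2), -1.06 (Scap to the anchors) and 1.93 (Mbtps1 to Mbtps2). Read depth is not given, so its limit on single values is unknown.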

Other observations

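Partner factors of the SREBPs, the LXR genes and upstream kinases went both ways. Of 13 tested genes 5 were higher and 6 lower in MC38.T4 (median log2 change -0.04). The called shares over all tested genes were 43.1% higher and 42.9% lower. Lpin1, which encodes a phosphatidate phosphatase that restrains nuclear SREBP, rose from 1.26 ± 0.05 to 7.26 ± 0.89 FPKM (SD, n = 5 each), and Nfya, a subunit of the CCAAT-binding factor NF-Y, from 12.1 ± 0.36 to 20.5 ± 0.64 FPKM. Prkaa2, a catalytic subunit of the energy sensor AMPK, fell from 4.02 ± 0.61 to 1.52 ± 0.02 FPKM, and the coactivator gene Crebbp from 10.9 ± 1.1 to 5.17 ± 0.31 FPKM. The limma adjusted p was at most 2.05e-09 for these 4 genes. Nr1h3, which encodes LXR alpha, a known inducer of Srebf1, lay below the filter at 0.0155 to 0.138 FPKM, and Nr1h2, which encodes LXR beta, was at 20.5 ± 1.2 FPKM in MC38 and 19.9 ± 0.73 in MC38.T4 (limma adjusted p = 0.383, log2 difference -0.04).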
